A study of Bos taurus with 14 samples.

Results

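The genes examined here are 50 genes of mitosis and the spindle checkpoint, followed in bovine conceptuses flushed from the uterus on Day 15 of gestation. They were chosen by name, and a gene counted as measured where a probe set of the array carried its symbol and no other symbol. By that rule 36 of the 50 genes were measured, by 50 of the 24016 probe sets that were not array controls, and 12 of the 36 genes had more than 1 probe set. The other 14 genes, MKI67, TOP2A, CDC25B, TTK, CENPE, NUF2, SPC25, KIF11, PRC1, RACGAP1, ANAPC1, CDC27, PTTG1 and SMC2, had no probe set under the rule and were not analysed here.

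A vertebrate cell enters mitosis when cyclin-dependent kinase 1, bound to a B-type cyclin, becomes active. Kinetochores then form on the centromeres and are caught by spindle microtubules, and the spindle checkpoint holds the cell until every kinetochore is attached. Its release lets the anaphase-promoting complex (APC/C), a ubiquitin ligase activated by CDC20, mark cyclin B and securin for destruction, so that chromosomes part and the cell leaves mitosis. Around this stage of bovine pregnancy the trophoblast of the conceptus elongates from an ovoid into a filament, and some of its cells later become binucleate by nuclear division without cell division.

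The 14 conceptuses were all Holstein, from embryos of superovulated donor cows inseminated with semen of 1 bull. Embryos were recovered on Day 6.5, scored for morphological grade and transferred by grade, 2 to 6 to a recipient heifer. The groups were Grade 3 (3 conceptuses, 2 male and 1 female), long Grade 1 (5, with 1 male and 4 females), short Grade 1 (5, with 2 males and 3 females) and a single Grade 1 male with no recorded length. Each conceptus was a mixture of embryonic and extraembryonic cells hybridised whole to 1 Affymetrix bovine array. Shared dams and recipients are not recorded in the labels, and the main tests treat the conceptuses as independent. The p-values may therefore be too small where conceptuses of the same group shared a dam or a recipient. They may be too large where conceptuses of different groups did, and they reflect only how these particular conceptuses vary.

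For short replicate 1, a label on length and a label on source contradicted each other. It was counted as short, which gives 5 conceptuses of each length, and the calls that change when it is counted as long are given after the length results. The design text names 4 Grade 1 conceptuses for the comparison of grades without saying which, so all 11 were used. Array medians ran between 5.62 and 5.716, and correlations between arrays between 0.9838 and 0.9967. KRT18, a trophoblast keratin, averaged 14.47 ± 0.02 in the 5 long conceptuses and 14.46 ± 0.05 in the 5 short ones, near the top of the scale of values (2.235 to 14.61). The ± after an average is the SD over the conceptuses of the group. PTPRC, the leukocyte marker CD45, averaged 3.00 ± 0.19 in long and 3.11 ± 0.14 in short conceptuses, near the bottom. Other markers of these cell types were less even. Log2 differences, long minus short, ran from -0.53 to 0.38 over the trophoblast markers and from -0.84 to 0.04 over the blood and immune markers. All 14 sex labels matched the level of XIST, the RNA of the inactive X chromosome, which lay between 3.72 and 4.33 in males and between 7.68 and 9.41 in females.

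Values are log2 expression values made by the authors with RMA, which corrects background, gives all arrays 1 distribution and reduces each probe set to a single value. A difference of 1 on this scale is a doubling. Levels of different probe sets cannot be ranked against each other, so each is compared only with itself across conceptuses. Where a gene had several probe sets, the one with the highest mean over the 14 arrays stands for the gene, and the others are given where they disagree.

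The mitotic genes were nearly flat across the 14 conceptuses. The difference between the highest and the lowest conceptus had a median of 0.441 over the 36 genes, and ran from 0.246 for BIRC5, the passenger protein survivin, to 0.776 for KIF23, a motor of the central spindle. No member exceeded 1 log2 unit. Over all 9155 genes with a single symbol the median range was 0.539 and 13.3% exceeded 1. Among the 7494 genes whose mean level lay inside the range of the members, 15.5% exceeded 1. That set was not matched in level, with a median mean level of 8.15 against 9.99 for the members. In these whole conceptuses, fewer cells of a type and less RNA per cell cannot be told apart.

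Long against short Grade 1 conceptuses gave small differences, more often downward than upward. CCNA2 (cyclin A2) and KIF2C (a kinesin that disassembles microtubules at centromeres) fell in long conceptuses, at a fold of 0.82 and 0.85. No member gene passed upward by its brightest probe set, although 10 of the 36 lay above 0. Thus 2 of 36 genes passed limma's adjusted p under 0.05, against 9.5% of all 9155 genes. By gene, calls were no more frequent among the mitotic genes than elsewhere. By probe set, 4 of 50 passed, against 6.57% of all probe sets, with a dimmer CENPN probe set higher and the others lower. The median difference, long minus short, was -0.08 over the members and -0.03 over all genes, and 26 of 36 members lay below 0, as did 58.8% of all genes. At an unadjusted p under 0.05 there were 10 lower genes and 1 higher gene among the 36, 11 in all. Over all genes, 18.6% were lower and 10.3% higher at that threshold, 28.9% in all.

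**Figure D1:**
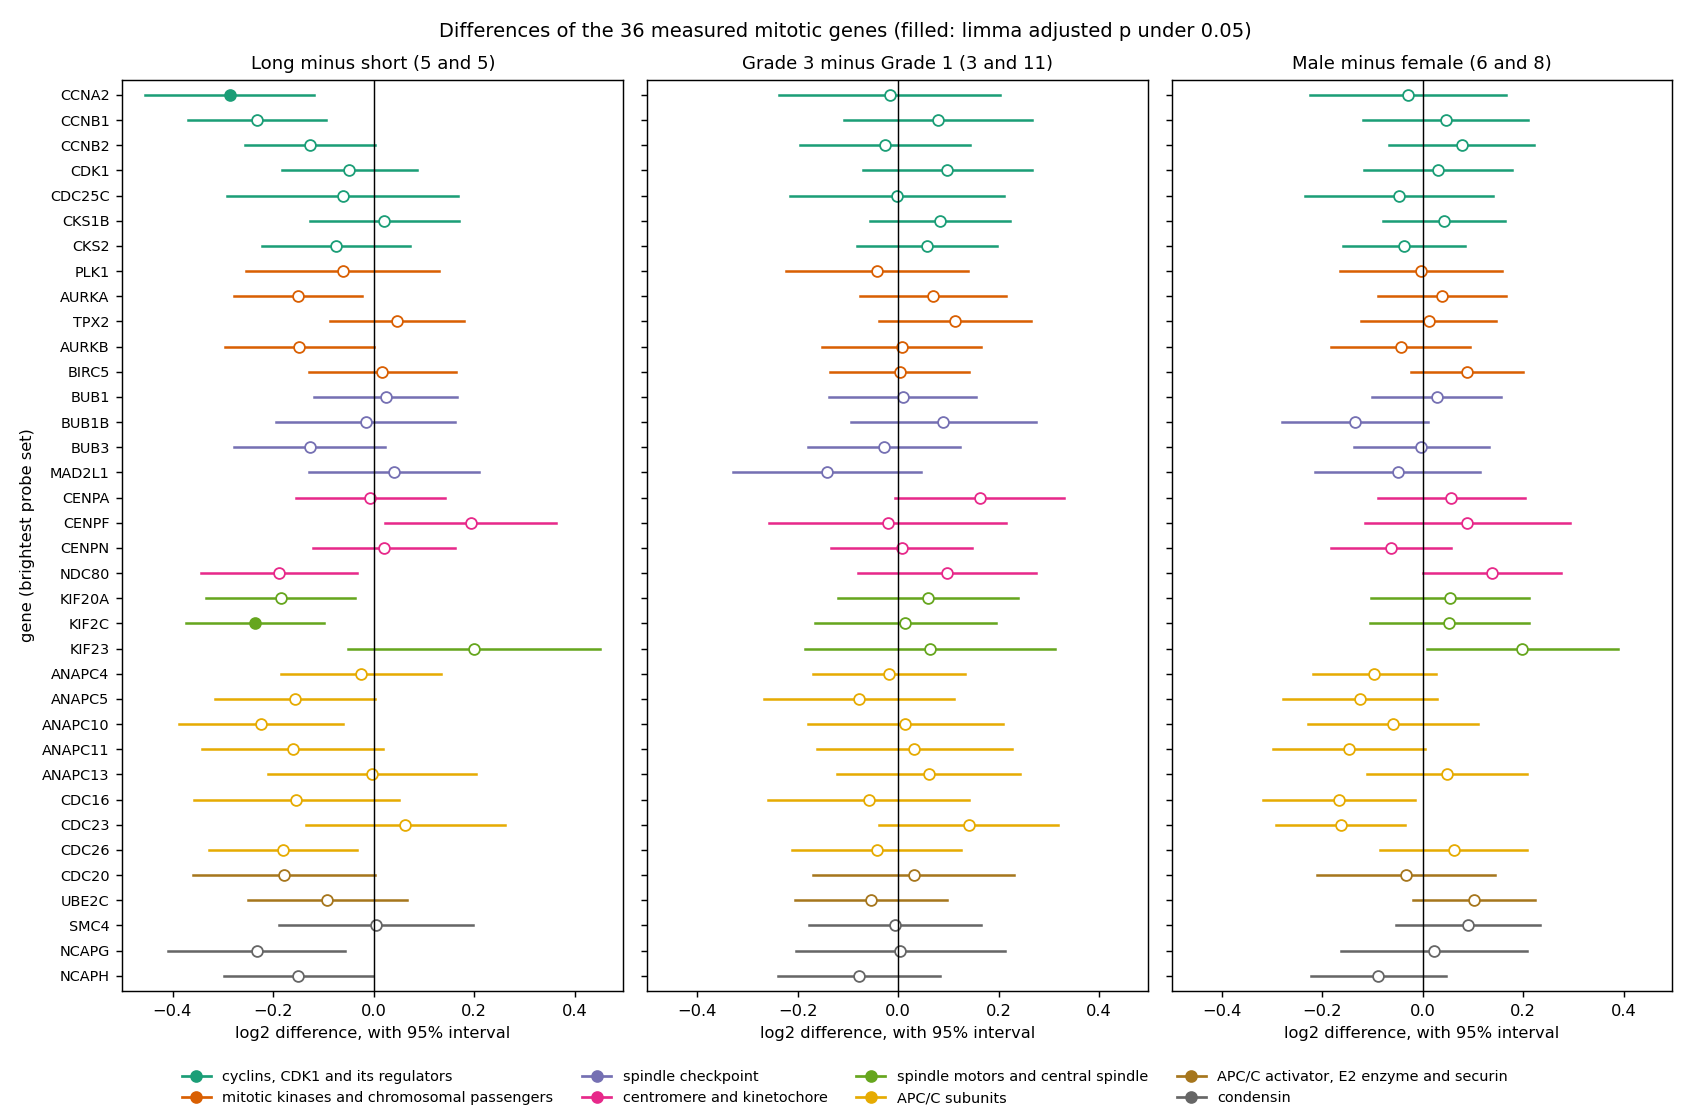
Log2 differences (x axis) of the 36 measured mitotic genes (y axis, grouped by role and colour) for long minus short Grade 1, Grade 3 minus Grade 1 and male minus female conceptuses, with 95% limma intervals as bars. CCNA2 and KIF2C are the filled points, those with an adjusted p under 0.05, and no other point of the 3 panels is filled.

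Among the cyclins and CDK1 with its regulators, 6 of 7 measured genes lay below 0 and CCNA2 passed. Cyclin A2 partners cyclin-dependent kinases through DNA replication and early mitosis. Its values were 9.25, 9.38, 9.16, 9.34 and 9.19 in long conceptuses, against 9.60, 9.37, 9.52, 9.55 and 9.73 in short ones. The lengths overlapped only through long replicate 2 and short replicate 2, which both lay near 9.4. The difference was -0.29 ± 0.08 (SE; limma adjusted p = 0.0484), with 95% limits of -0.45 and -0.12. The Grade 3 conceptuses, at 9.40, 9.43 and 9.33, fell between the means of the lengths (9.27 ± 0.09 in long and 9.55 ± 0.13 in short).

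CCNB1 (cyclin B1), the activator of CDK1 at mitotic entry, stood just outside the threshold and is described after its values were seen. It had 11.08, 11.03, 11.01, 11.04 and 11.09 in long conceptuses, against 11.19, 11.21, 11.22, 11.37 and 11.42 in short ones. Every long conceptus was below every short one, and the long ones spanned less than 0.1 log2. The difference was -0.23 ± 0.06 (limma adjusted p = 0.0506).

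CDK1 itself, the kinase these cyclins activate, was at 11.75, 11.91, 11.90, 11.90 and 11.91 in long and 11.92, 11.91, 11.90, 11.84 and 12.05 in short conceptuses. Long replicate 1 and short replicate 4 lay below the other conceptuses and short replicate 5 above them, while the other 7 shared a narrow band, and the interval of the difference ran from -0.18 to 0.09. CKS1B and CKS2, small proteins that bind the kinase, differed by 0.02 and -0.07, and CDC25C, a phosphatase that activates it, by -0.06. CCNB2 (cyclin B2) differed by -0.13, with an adjusted p of 0.237 by limma.

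**Figure D2:**
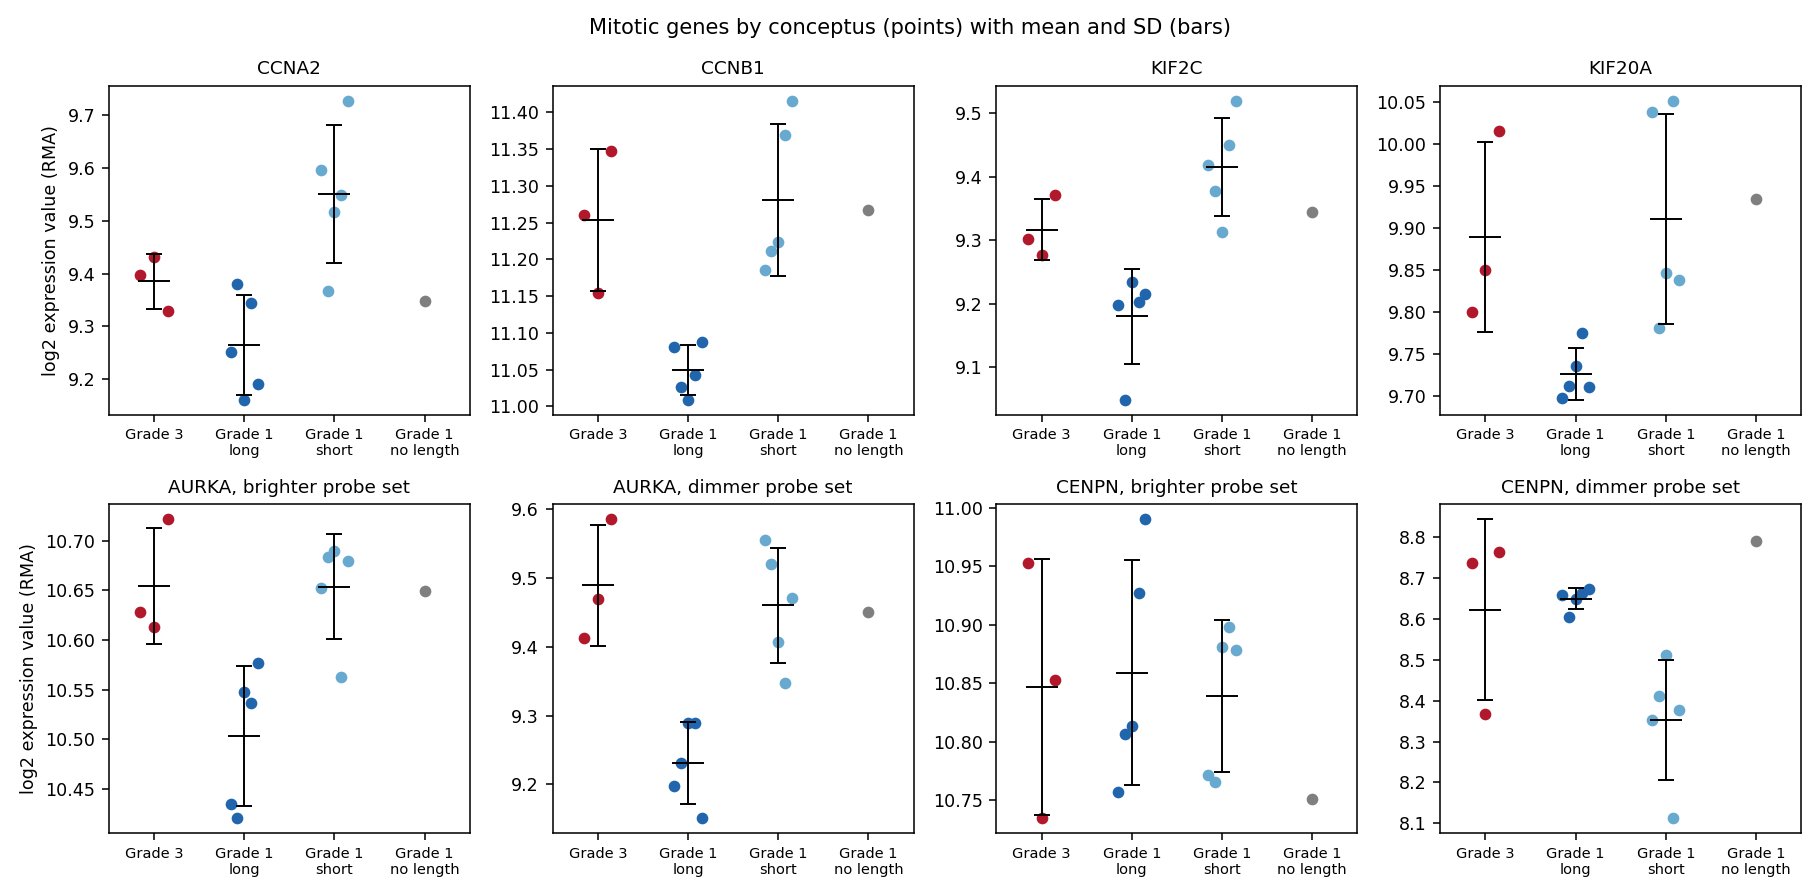
Log2 expression value (y axis, a separate scale for each panel) of 6 mitotic genes, 2 of them by both of their probe sets, in each conceptus of the 4 groups (x axis). Points are conceptuses and bars are the mean and SD; the 5 long conceptuses lie below all 5 short ones for CCNB1, KIF2C, KIF20A and the dimmer AURKA probe set, and above all 5 for the dimmer CENPN probe set.

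In the mitotic kinases and chromosomal passengers, 3 of 5 genes lay below 0 and none passed by its brighter probe set. AURKA, the kinase that matures spindle poles, had a dimmer probe set that fell in long conceptuses. That probe set had 9.20, 9.23, 9.29, 9.29 and 9.15 in long conceptuses, against 9.56, 9.52, 9.41, 9.35 and 9.47 in short ones. The lengths did not overlap, as was so for 5.52% of all probe sets in this direction, and the difference was -0.23 ± 0.06 (limma adjusted p = 0.0485). The brighter AURKA probe set gave -0.15 ± 0.06 (adjusted p = 0.153) with 10.44, 10.42, 10.55, 10.54 and 10.58 in long and 10.65, 10.68, 10.69, 10.56 and 10.68 in short conceptuses. Both probe sets thus lay lower in long conceptuses, and they differ in whether the test was passed.

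AURKB, the kinase of the chromosomal passenger complex, differed by -0.15 (limma adjusted p = 0.228), while BIRC5, its partner survivin, differed by 0.02. PLK1, a kinase of spindle assembly and cytokinesis, differed by -0.06. TPX2, which activates AURKA on the spindle, differed by 0.05, opposite in sign to AURKA.

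The 4 measured checkpoint genes split evenly, with 2 below 0 and 2 above, and their median difference was 0.00. BUB3, which brings the checkpoint kinase and its relative to kinetochores, had the smallest adjusted p of the 4 by the brightest probe sets, at -0.13 (limma adjusted p = 0.316). Its values were 12.18, 11.98, 12.21, 12.20 and 12.26 in long and 12.21, 12.27, 12.23, 12.35 and 12.40 in short conceptuses, and they overlapped. MAD2L1 (MAD2), the inhibitor of CDC20, ran from 12.79 to 13.05 in long and from 12.75 to 13.03 in short conceptuses. The lengths covered almost the same span of MAD2L1, and the 95% limits of the difference were -0.13 and 0.21. BUB1, the checkpoint kinase, differed by 0.02 and BUB1B (BUBR1), a part of the mitotic checkpoint complex, by -0.02. The dimmer BUB1 probe set lay at 0.21 (limma adjusted p = 0.182).

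At the centromere and kinetochore, 2 of 4 genes lay below 0, and probe sets of the same gene did not always move alike. CENPN, which reads the nucleosome that marks the centromere, had a dimmer probe set that rose in long conceptuses: 8.66, 8.61, 8.65, 8.66 and 8.67, against 8.35, 8.41, 8.51, 8.11 and 8.38 in short ones. The long conceptuses were tightly grouped and all above the short ones, as for 2.9% of all probe sets in this direction, with a difference of 0.30 ± 0.07 (limma adjusted p = 0.0385). Its brighter probe set showed no such gap, with 10.76, 10.81, 10.81, 10.93 and 10.99 in long and 10.77, 10.77, 10.88, 10.90 and 10.88 in short conceptuses. The brighter set gave 0.02 ± 0.06 (limma adjusted p = 0.901), and its sign turned in 4 of the alternative fits, among them the fit with sex as a covariate, at -0.0042.

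CENPF, a large outer kinetochore protein, was the only member gene with an unadjusted p under 0.05 upward. It gave 0.19 by the brighter probe set (limma adjusted p = 0.169) and -0.22 by the dimmer one (adjusted p = 0.288), so the direction depends on the probe set. NDC80, the outer kinetochore protein that holds microtubules, was at 9.20, 9.004, 8.98, 8.89 and 8.90 in long and 9.24, 9.21, 9.12, 9.11 and 9.23 in short conceptuses. Only long replicate 1 reached the short ones, and the difference was -0.19 ± 0.07 (limma adjusted p = 0.14). CENPA, the histone variant that marks the centromere, differed by -0.01.

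Of the 3 measured spindle motors, KIF2C passed, and it was lower in long conceptuses. KIF2C was at 9.20, 9.05, 9.23, 9.20 and 9.22 in long conceptuses, against 9.42, 9.38, 9.31, 9.45 and 9.52 in short ones, with no overlap. The difference was -0.24 ± 0.06 (limma adjusted p = 0.0469), with 95% limits of -0.37 and -0.10, and its dimmer probe set gave -0.17 (adjusted p = 0.183).

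KIF20A, which carries the chromosomal passengers to the central spindle, had 9.70, 9.71, 9.74, 9.78 and 9.71 in long and 10.04, 9.78, 9.85, 10.05 and 9.84 in short conceptuses. It is named after its values were seen: the lengths did not overlap, but by less than 0.01 log2, and the difference of -0.18 missed the test (limma adjusted p = 0.134). With CCNB1 and KIF2C this made 3 of 36 genes lower in every long conceptus, where 9.03% of all genes were so. KIF23 went the other way at 0.20 ± 0.11 (limma adjusted p = 0.343), with 11.21, 11.05, 10.80, 10.85 and 10.80 in long and 10.86, 10.995, 10.77, 10.65 and 10.44 in short conceptuses. The highest KIF23 value belonged to long replicate 1 and the lowest to short replicate 5, and the remaining conceptuses overlapped.

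Of the 8 measured APC/C subunits, 7 lay below 0 in long conceptuses, with a median of -0.16, and none passed. ANAPC10, a subunit that helps recognise substrates, was at 8.87, 9.07, 8.95, 9.07 and 8.98 in long and 9.16, 9.19, 9.22, 9.07 and 9.41 in short conceptuses. Only short replicate 4 fell among the long ones, and the difference was -0.22 (limma adjusted p = 0.101). CDC26, which stabilises CDC16, differed by -0.18 and CDC16, a scaffold subunit, by -0.15. ANAPC11, of the catalytic core, differed by -0.16, ANAPC4 by -0.03 and ANAPC13 by -0.003. ANAPC5 gave -0.16 by the brighter and 0.06 by the dimmer probe set. CDC23, another scaffold subunit, was the only one of the 8 above 0, at 0.06.

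CDC20, the activator of the complex, was at 10.46, 10.46, 10.43, 10.40 and 10.28 in long and 10.58, 10.33, 10.78, 10.63 and 10.60 in short conceptuses. Short replicate 2 was the only short conceptus among the long ones, and the difference was -0.18 (limma adjusted p = 0.237). UBE2C, the enzyme that hands ubiquitin to the complex, differed by -0.09.

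In condensin, which compacts chromosomes, NCAPG and NCAPH lay below 0 and SMC4, a core ATPase, at 0.00. NCAPG had 9.66, 9.82, 9.45, 9.71 and 9.54 in long and 9.86, 9.82, 10.03, 9.78 and 9.85 in short conceptuses, where long replicate 2 lay among the short ones. The difference was -0.23 ± 0.08 (limma adjusted p = 0.112). All 3 probe sets of NCAPH lay below 0, at -0.15, -0.19 and -0.22, and none passed the test.

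Calls changed with the conceptuses in the fit, over the whole array as well as among the members. Leaving out any 1 of the 10 conceptuses left at most 1 of the 36 genes called, in fits that called 1.92% to 7.07% of all probe sets (6.57% with all 10). KIF2C, CCNA2 and the dimmer CENPN probe set each passed in 1 of 10 such fits by limma (highest adjusted p 0.106, 0.111 and 0.0866), and the dimmer AURKA probe set in 0 of 10 (0.0615 to 0.115). With sex as a covariate, 4 of 36 genes passed, CCNA2, CCNB1, CDC16 and KIF2C, in a fit that called 10% of all probe sets.

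With short replicate 1 counted as long, no member passed, in a fit that called 2.05% of all probe sets. Limma gave adjusted p-values of 0.174 for KIF2C, 0.227 for CCNA2, 0.328 for the dimmer AURKA probe set and 0.154 for the dimmer CENPN probe set. KIF2C, KIF20A and these dimmer probe sets then overlapped between the lengths, and CCNB1 alone of the 36 genes was lower in every long conceptus, where 5.31% of all genes were so.

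The number before the dash of each sample title was tried as a batch, although the labels do not say what it stands for. It took 7 values, 2 of which covered both lengths. Within the one with 2 long and 1 short conceptus, 26 of 36 members lay below 0 (54.1% of all genes), and within the one with 1 long and 2 short, 29 of 36 (59% of all genes). CCNA2 differed by -0.05 and -0.37 inside them, KIF2C by -0.25 and -0.15, and CCNB1 by -0.16 and -0.29. The dimmer AURKA probe set differed by -0.31 and -0.09, and the dimmer CENPN probe set by 0.22 and 0.34. With this number as a fixed block no member passed, in a fit that called 0.466% of all probe sets.

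Averaged over all 36 genes, each taken relative to its own mean over the 14 arrays, the level was -0.070 to -0.015 in long and -0.013 to 0.072 in short conceptuses. The lengths adjoined without overlapping, but they overlapped with short replicate 1 counted as long, at -0.070 to 0.026 in long and -0.013 to 0.072 in short conceptuses. Grade 3 conceptuses were at -0.016, -0.007 and 0.068, and the conceptus of no recorded length at 0.005. In the checkpoint group the long conceptuses, at -0.056 to 0.041, lay inside the wider range of the short ones, at -0.071 to 0.118. No test was made of these averages. The same average was not taken over all genes, 58.8% of which also lay below 0 between the lengths.

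**Figure D3:**
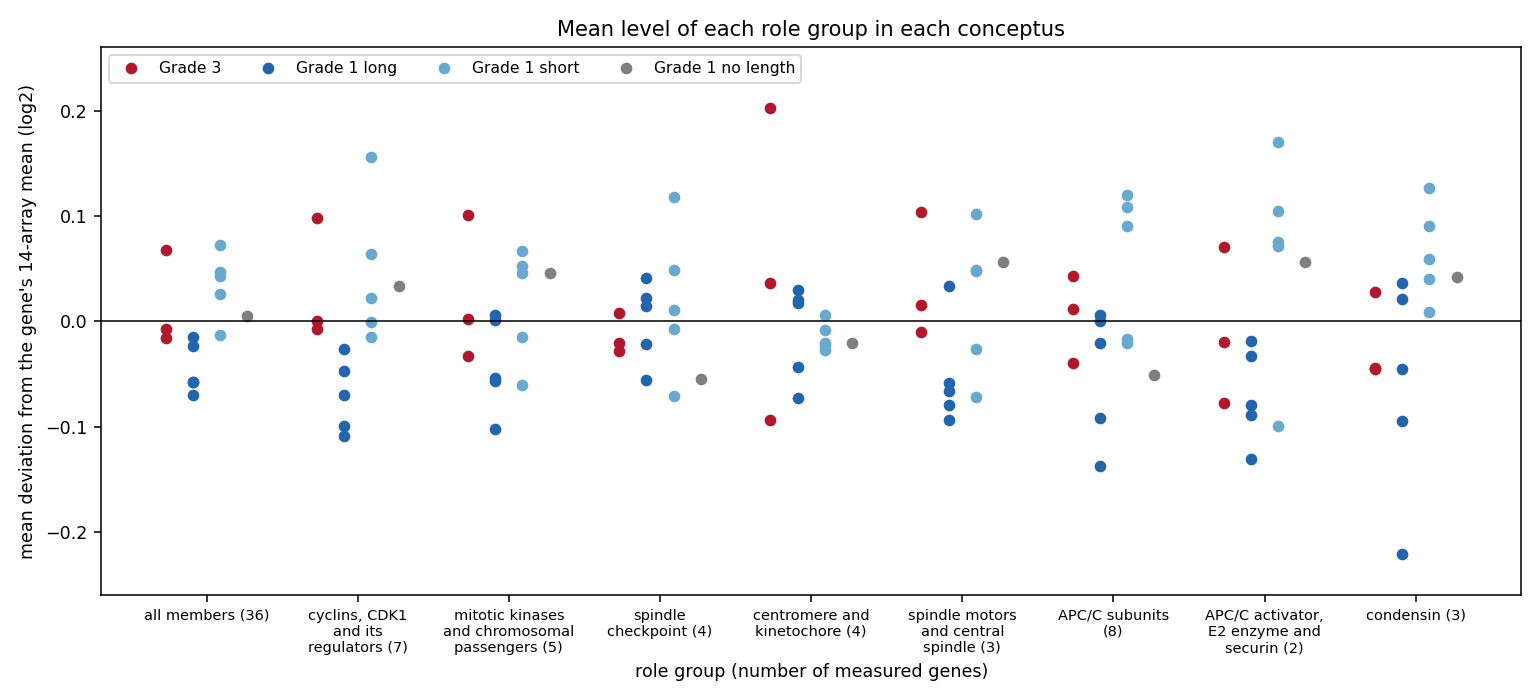
Mean deviation of each role group's genes from their own 14-array means (y axis, log2) in each conceptus, by role group (x axis, with the number of measured genes) and conceptus group (colour). Long conceptuses lie between -0.070 and -0.015 over all members and short ones between -0.013 and 0.072; Grade 3 replicate 3 is the highest point of the centromere and kinetochore group, at 0.203.

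Of 41 measured markers of cell types 5 passed between the lengths, 12.2%, against 9.5% of all genes. The summed level is the mean deviation of a marker list from its genes' own means. The 3 measured epiblast markers were at -0.357 to 0.069 in long and 0.020 to 0.522 in short conceptuses. All 3 lay below 0, with differences from -0.82 to -0.26, and 1 of them, DNMT3B, passed. The 5 measured markers of binucleate trophoblast were at 0.057 to 0.474 in long and -0.391 to -0.058 in short conceptuses, and none passed. Their single differences ran from -0.10 to 1.59 with a median of 0.12, so 1 gene weighed heavily in this level.

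The 7 hypoblast markers were at -0.244 to -0.036 in long and -0.096 to 0.272 in short conceptuses. Among them COL4A1 rose by 0.58 and PDGFRA fell by 1.80 on the log2 scale. The median difference of the 7 was -0.11, so PDGFRA weighed heavily in this level. The 8 blood and immune markers were at -0.251 to -0.037 in long and -0.116 to 0.264 in short conceptuses, with 1 call, CD8A, lower. The 6 trophoblast markers were at -0.118 to 0.093 in long and -0.023 to 0.131 in short conceptuses, with 1 call, TFAP2A, higher. None of the 6 endometrial or 6 erythroid markers passed. Several defining markers, among them CDX2, GATA3, SOX17 and NANOG, were not analysed here. The part of cell makeup in the differences of the mitotic genes was not tested.

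Grade 3 against Grade 1 conceptuses gave no called mitotic gene, and no gene of any kind passed in this comparison (0% of 9155 genes). No value of the number before the dash of the titles covered both grades, and embryos were transferred by grade. Grade therefore cannot be told apart from that number or from the recipient. At an unadjusted p under 0.05, 0 of 36 members were counted where the share over all genes was 4.05%. The differences, Grade 3 minus Grade 1, ran from -0.14 to 0.16 with a median of 0.01, and 14 of 36 lay below 0 (51% of all genes). The median had no settled sign: it was -0.002 with arrays centred and -0.004 without Grade 3 replicate 3, with 19 of 36 below 0 in each. Every 95% interval of the 36 genes stayed between -0.330 and 0.331, a fold of at most 1.26 in either direction. A p that misses the threshold does not show equal levels, and with 3 Grade 3 arrays the half-width of an interval was 0.178 at the median.

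The genes with the smallest p for grade in each role group are given by their values. CENPA had 4.22, 4.18 and 4.55 in Grade 3 conceptuses, against a lowest of 4.05, a median of 4.13 and a highest of 4.32 in the 11 Grade 1 conceptuses. The difference of 0.16 ± 0.08 (limma adjusted p = 0.992) came with only Grade 3 replicate 3 outside the Grade 1 range, and these values lie in the lower part of the scale. MAD2L1 had 12.88, 12.80 and 12.57 in Grade 3 conceptuses, against 12.67 to 13.05 in Grade 1. Its difference was -0.14 ± 0.09, with Grade 3 replicate 3 the lowest of the 14. Without that conceptus CENPA differed by 0.05 and MAD2L1 by -0.05.

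TPX2 had 11.58, 11.53 and 11.86 in Grade 3 conceptuses, against 11.39 to 11.64 in Grade 1, a difference of 0.11 ± 0.07. Its dimmer probe set gave 0.16 and the same order, with Grade 3 replicate 3 above all others, and without that conceptus the brighter set differed by 0.01. CKS1B differed by 0.08 ± 0.07, CDC23 by 0.14 ± 0.08, KIF20A by 0.06 ± 0.08, UBE2C by -0.05 ± 0.07 and NCAPH by -0.08 ± 0.08. Limma's adjusted p was 0.999 for each of these.

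One conceptus, Grade 3 replicate 3, stood at the upper end for many mitotic genes. It was the highest of the 14 arrays for 8 of the 36 members, above the next array by 0.22 for TPX2, 0.23 for CENPA and 0.19 for CDK1. CDK1 was at 11.88, 11.90 and 12.25 in Grade 3 conceptuses, against 11.75 to 12.06 in Grade 1. Its difference was 0.10, and -0.02 without Grade 3 replicate 3. Other conceptuses had counts of similar size: short replicate 5 was the highest for 9 members and short replicate 4 for 6, while long replicate 2 was the lowest for 8.

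Grade 3 was also set against each length of Grade 1 in 1 fit, in which both comparisons share the Grade 3 arrays. Against long conceptuses the median difference of the members was 0.07 (0.02 over all genes), 10 of 36 lay below 0 (43.1% of all genes), and 0 passed (0% of all genes). That median was 0.033 without Grade 3 replicate 3 and 0.113 without Grade 3 replicate 1. Against short conceptuses the median was -0.03 (-0.02 over all genes), 20 of 36 lay below 0 (55.7% of all genes), and 0 passed (0% of all genes). That median was -0.008 without short replicate 5 and -0.010 after a further quantile normalisation, and 26 of 36 lay below 0 with arrays centred or without Grade 3 replicate 3. Unadjusted p-values under 0.05 numbered 3 and 0 of the 36, where the shares of all genes were 9.63% and 12.4%.

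CCNB1, AURKA, KIF20A and KIF2C were above every long conceptus in all 3 Grade 3 conceptuses, 4 of 36 genes where 5.36% of all genes were so; these were noted after their values were seen. CCNB1 averaged 11.25 ± 0.10 in Grade 3, against 11.05 ± 0.03 in long and 11.28 ± 0.10 in short conceptuses. It differed by 0.20 ± 0.07 against long (limma adjusted p = 0.448) and by -0.03 ± 0.07 against short. The dimmer AURKA probe set averaged 9.49 ± 0.09 in Grade 3, against 9.23 ± 0.06 in long and 9.46 ± 0.08 in short conceptuses, and had an adjusted p of 0.332 against long by limma. CCNA2 differed by 0.12 ± 0.08 against long and by -0.17 ± 0.08 against short, so Grade 3 lay between the lengths for this gene.

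Male against female conceptuses, with grade as a covariate, gave 0 called members of 36, against 0.535% of all genes. The median difference, male minus female, was 0.02, with 17 genes below 0 and 19 above (56.7% of all genes lay below 0). The smallest adjusted p was that of CDC23, at -0.16 ± 0.06 (limma adjusted p = 0.475), with 9.06 ± 0.16 in 6 males and 9.19 ± 0.08 in 8 females. APC/C subunits lay below 0 in 6 of 8 genes, and CDC16 differed by -0.17 (limma adjusted p = 0.571). KIF23 differed by 0.20 and NDC80 by 0.14 in the other direction. No member lies on the X chromosome in the RefSeq annotation of assembly ARS-UCD2.0.

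Of 131 further genes of mitosis and the cell cycle that were listed beside the members, 77 were measured. Between the lengths 3 of the 77 passed, all lower in long conceptuses, again against 9.5% of all genes. The median difference over the 77 genes was -0.08. Of the 21 other kinetochore and checkpoint genes 18 lay below 0, with 2 calls, and all 4 other condensin genes did so, with none. The 9 other APC/C, separase and cohesin genes also all lay below 0, but with a median of -0.02 and no call.

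ZWILCH, a part of the complex that brings checkpoint proteins and dynein to kinetochores, was at 9.54, 9.44, 9.79, 9.80 and 9.72 in long conceptuses, against 9.94, 9.97, 10.04, 10.09 and 10.29 in short ones. The lengths did not overlap, as for 9.03% of all genes in this direction, and ZWILCH fell by 0.41 on the log2 scale (SE 0.09; limma adjusted p = 0.0279). CENPT, which links centromeric DNA to the outer kinetochore, was at 6.38, 6.53, 6.68, 6.54 and 6.73 in long and 6.94, 6.72, 6.99, 7.12 and 7.23 in short conceptuses. Only long replicate 5 and short replicate 2 met, and the difference was -0.43 ± 0.10 (limma adjusted p = 0.0323). ZWILCH passed in 5 of the 10 fits without 1 conceptus and CENPT in 3.

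The inhibitors of the cycle formed the one further group with a median above 0, at 0.20. Of its 9 measured genes 3 lay below 0, and 1 of these passed the test. That gene, CDKN2B, an inhibitor of the kinases of G1, was at 4.15, 4.15, 4.53, 4.53 and 4.28 in long and 4.66, 4.67, 4.74, 4.62 and 4.69 in short conceptuses. Short conceptuses were tightly grouped and all above the long ones, as for 9.03% of all genes in this direction. The difference was -0.35 ± 0.09 (limma adjusted p = 0.0394), and the values lie in the lower part of the scale, below the array medians. CDKN2B passed in 2 of the 10 fits without 1 conceptus. With short replicate 1 counted as long, limma's adjusted p was 0.0643 for ZWILCH, 0.103 for CENPT and 0.143 for CDKN2B, and CDKN2B then overlapped between the lengths. CDKN1C, named after its values were seen, had the largest positive difference of the 77 genes at 1.52 ± 0.62 (limma adjusted p = 0.174). Its values ran from 10.13 to 10.91 in long conceptuses, against 10.27, 9.99, 9.17, 9.61 and 6.24 in short ones, where the last value, of short replicate 5, stood far below the rest. Without short replicate 5 the difference was 0.82 (limma adjusted p = 0.0796).

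Between the sexes 1 of the 77 genes passed, against 0.535% of all genes. CENPI, a centromere protein encoded on the X chromosome, was at 7.80 and 8.22 in the Grade 3 males, 7.77 in the long male, 7.89 and 7.76 in the short males and 7.75 in the male of no recorded length. The 8 females ran from 8.15 to 8.37, so 5 of 6 males lay below every female and Grade 3 replicate 3 lay among them. CENPI averaged 7.87 ± 0.18 in males and 8.27 ± 0.08 in females, and fell by 0.44 in males on the log2 scale (SE 0.07; limma adjusted p = 0.00814). Without Grade 3 replicate 3 the difference was -0.47 (adjusted p = 0.00117), and it passed in all 14 fits without 1 conceptus.

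**Figure D4:**
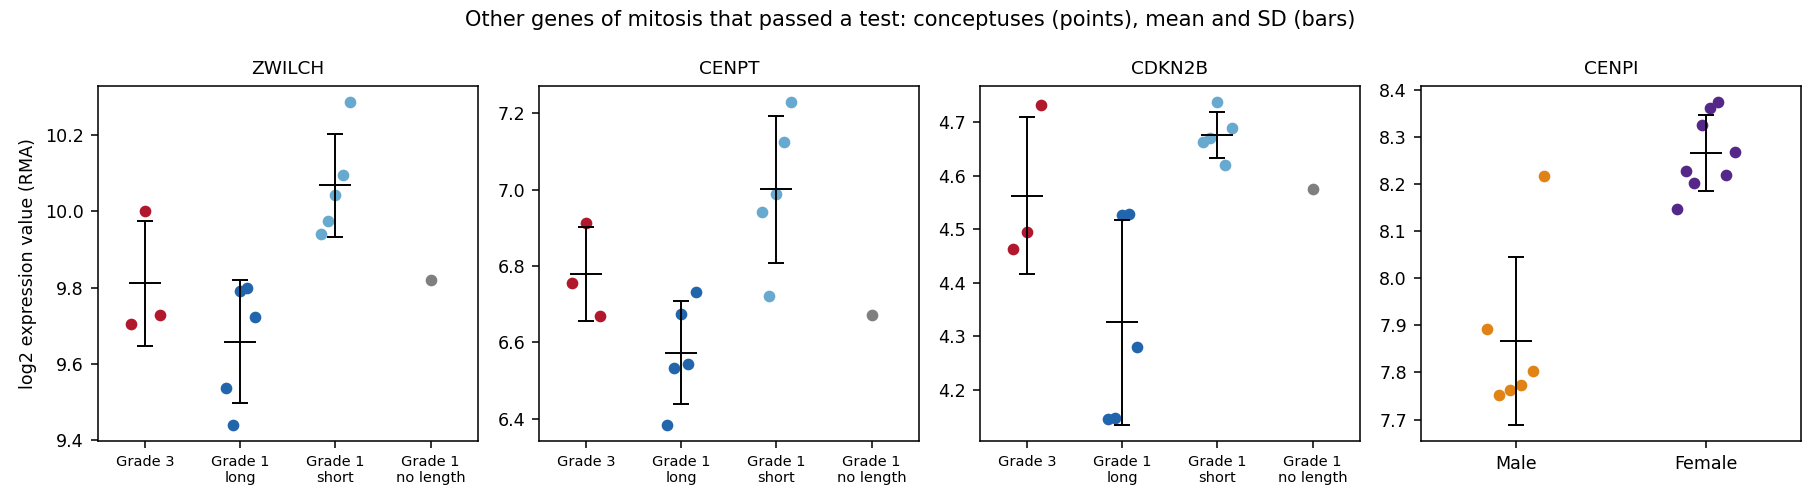
Log2 expression value (y axis, a separate scale for each panel) of the 4 further genes of mitosis or the cell cycle that passed a test, by conceptus group for ZWILCH, CENPT and CDKN2B and by sex for CENPI (x axis). Points are conceptuses and bars the mean and SD; in CENPI, 1 male at 8.22 lies among the females and the other 5 lie between 7.75 and 7.89.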

How the data were processed

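RNA of 14 conceptuses, 250 ng of total RNA each per the labels' protocols, was hybridised to Affymetrix bovine arrays. The deposited values are log2 expression values that the authors made by RMA with Affymetrix's Expression Console (per the submitters' processing notes, which name no version). RMA compresses small differences at low signal and removes a shift shared by all genes. Arrays carry no read depth, so their number limits the precision: the half-width of a member's 95% interval was 0.156 for length, 0.178 for grade and 0.146 for sex at the median.

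From the 24128 probe sets of the deposited table, 112 array controls were left out. The platform annotation gave 1 symbol to 13292 probe sets of 9155 genes; all 50 member probe sets matched RefSeq by Entrez number with 0 symbols changed. Differences were fitted over all 24016 probe sets in R 4.3.3 by the lmFit and eBayes functions of limma 3.58.1, two-sided, with Benjamini-Hochberg adjustment over all of them and a threshold of 0.05. Length used 10 arrays; grade and sex used 14, sex with grade as a covariate; Grade 3 against each length used 1 fit of 4 groups. The script was tested on simulated data. Alternatives covered centring, quantile normalisation, a filter on dim probe sets, the mean of a gene's probe sets, trend and robust eBayes, sex, blocks and leaving out conceptuses.

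The members, lists and rules were chosen with earlier results of these data known. Genes named were those with a called probe set, the smallest p of each role group for length and for grade, called genes of the further list, and others said to be chosen after their values were seen. The remaining members are given by their difference, except CDK1 and KIF23, whose values in each length are also given although none of these rules names them. Replicate numbers follow accession order and pair nothing. Promoter and protein sequences were not used here, so the planned count of promoter motifs was not made.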

Additional observations from a re-analysis of the deposited data

Results flagged for a closer look

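In the long and in the short conceptuses, the highest and the lowest value of each member gene and of each other called probe set were compared with their nearest neighbour, as were those of CENPI in males and in females, and a value counted as outlying where that gap exceeded Dixon's 95% critical value (0.71 of the group's range for 5 samples). Of 84 groups so examined 4 held an outlying conceptus, and chance alone marks about 1 group in 20. CDK1 was at 11.75 in long replicate 1, where the next long conceptus had 11.90. BIRC5 was at 11.07 in short replicate 1, the conceptus whose length labels contradict each other, where the next short one had 10.92. KIF2C was at 9.05 in long replicate 2, where the next long one had 9.20. Among the males, CENPI was at 8.22 in Grade 3 replicate 3, where the next male had 7.89.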

How the results depend on the processing

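The number of member genes called between the lengths, 2 by the fit described, was 1 with arrays centred on their medians, 0 after a further quantile normalisation, 4 with sex as a covariate, 0 with short replicate 1 counted as long, 0 with the title number as a fixed block and 0 to 1 when 1 conceptus was left out. It was 0 without short replicates 1 and 5 together, the arrays with the lowest correlation with their own group, an alternative chosen after seeing the data. The number of probe sets called, 4 by the fit described, was 1, 0, 0 and 0 after quantile normalisation, with short replicate 1 as long, with the block and without short replicates 1 and 5, and 0 to 2 when 1 conceptus was left out. Calls over all probe sets moved too, between 460 and 1697 when 1 conceptus was left out, against 1577. In 3 alternatives, the filter on dim probe sets, trend and robust eBayes and 1 fit over all 14 arrays, 3 genes passed, CCNB1 being the added one; 5 probe sets passed under the filter, under trend and robust eBayes and with sex as a covariate. CCNB1 also passed without short replicate 1 (limma adjusted p = 0.0433). The brighter CENPN probe set turned negative with sex as a covariate (-0.0042), with short replicate 1 as long (-0.011), with the block (-0.030) and without long replicate 5 (-0.013, the lowest of -0.013 to 0.045 when 1 conceptus was left out). Between the grades CDK1, at 0.10, turned to -0.021 without Grade 3 replicate 3 (up to 0.162 without Grade 3 replicate 1), an alternative added after seeing the data, as were the values of other single genes without 1 conceptus for grade and for CDKN1C. The cause of these changes was not tested. The median of the members between the lengths stayed below 0 throughout, between -0.114 and -0.066. For grade, for Grade 3 against each length and for sex, no member was called in any alternative; the median for grade crossed 0, that for sex also did, between -0.005 and 0.028 when 1 conceptus was left out, and that for Grade 3 against long was 0.033 without Grade 3 replicate 3 and 0.113 without Grade 3 replicate 1. Replicate numbers follow accession order and pair no conceptuses, so the title number was the block that was tried.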
